A study of Mus musculus with 12 samples.

Results

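The CCN family and the YAP/TAZ-TEAD axis were described in cultured hernia-associated fibroblasts (HAFs) as 10 genes: the 5 secreted members Ccn1, Ccn2, Ccn3, Ccn4 and Ccn5, the coactivator genes Yap1 and Wwtr1 (which encodes TAZ), the DNA-binding partners Tead1 and Tead3, and Amotl2, a junction-associated regulator. They were taken by symbol from the annotation, with the older names Cyr61, Ctgf, Nov, Wisp1 and Wisp2 matched to Ccn1 to Ccn5, and 10 of the 10 listed genes were among the 13233 genes measured. Ccn6, the other family member, was not analysed here.

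CCN proteins are secreted into the matrix around a cell, where they bind integrins and heparan sulfate proteoglycans and alter adhesion, migration and growth factor responses. Connective tissue growth factor, the product of Ccn2, is widely used as a marker of fibroblast activation in fibrosis, and CCN3 is often described as opposing CCN2. YAP and TAZ are held in the cytoplasm when phosphorylated by the LATS kinases of the Hippo pathway, and otherwise enter the nucleus and bind TEAD factors, for which Ccn1, Ccn2 and Amotl2 are textbook target genes. Their activity is set largely by location and phosphorylation of the proteins, which RNA levels do not measure.

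RNA-Seq was performed on primary HAFs from the lower abdominal muscle (LAM) of Aromhum mice, a line that carries the human aromatase gene and so makes estradiol (E2) from testosterone. All 12 samples carried this genotype, so no wild-type cells entered the comparisons. There were 4 groups of 3 replicates, each treated for 48 h: vehicle (a mix of ethanol with DMSO), E2 at 10 nM, the same dose of E2 together with fulvestrant at 100 nM, and fulvestrant by itself at 100 nM. Fulvestrant is an antagonist of the estrogen receptor ESR1 that also promotes its degradation. The study's methods describe passage 1 cells starved of serum overnight, with fulvestrant given ahead of E2 and low charcoal-stripped serum during treatment. The labels did not say whether replicates came from separate animals, so p-values measure the spread between these samples, which may be technical.

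Values are normalized counts, which are reads per gene divided by 1 factor per sample, and a sample had between 18827792 and 44040507 reads on these genes. Replicate 1 stood apart in every group. The chi-square of reads per gene between replicates 2 and 3 of a group was 4.3 to 23.5, against 179 to 224 between replicate 1 and either of them. The fibroblast markers Pdgfra (23150 to 40301) and Col1a1 (35033 to 102846) were high in all 12 samples, whereas Dpt, which encodes the matrix protein dermatopontin, was at 369 to 737 in replicate 1 and at 16120 to 22485 in replicates 2 and 3. Of the marker lists for other cells, 0 of 8 myogenic and 0 of 4 adipocyte genes were in the table, and endothelial, immune, pericyte and glial lists had 1 of 6, 3 of 6, 3 of 6 and 2 of 4 genes. Endothelial Tek reached 277, the immune genes Cd14, Cd68 and Lyz2 reached 133, 112 and 340, and the glial gene S100b reached 101. Of the pericyte genes Myh11 and Notch3 reached 68.4 and 283, whereas Cspg4 was at 1858 to 4255. Pgr, which encodes the progesterone receptor and is a standard E2 target, was at 25.4, 85.3 and 104 with vehicle and at 145, 268 and 304 with E2 in replicates 1, 2 and 3. With fulvestrant it was at most 28.4 in all 6 samples.

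Upstream sequences are shown because TEAD factors bind a short core, GGAATG, that can be read directly. RefSeq promoters (GRCm38.p6, the 250 bases before the start) were matched by symbol for 5 of the 10 genes: Ccn1, Yap1, Wwtr1, Tead3 and Amotl2. In each line below, 5′ to 3′ on the gene's own strand, capitals mark GGAATG or its reverse complement CATTCC. The promoters of Ccn1 (chr3:145649986-145650235, minus strand) and Amotl2 (chr9:102717554-102717803, plus strand) are the 2 whole promoters printed, since both genes are known TEAD targets.
Ccn1: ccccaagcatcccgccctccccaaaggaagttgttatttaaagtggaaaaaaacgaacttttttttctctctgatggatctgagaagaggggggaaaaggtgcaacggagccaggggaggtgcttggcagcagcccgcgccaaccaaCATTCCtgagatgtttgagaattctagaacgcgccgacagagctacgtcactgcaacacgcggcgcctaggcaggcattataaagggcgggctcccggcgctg
Amotl2: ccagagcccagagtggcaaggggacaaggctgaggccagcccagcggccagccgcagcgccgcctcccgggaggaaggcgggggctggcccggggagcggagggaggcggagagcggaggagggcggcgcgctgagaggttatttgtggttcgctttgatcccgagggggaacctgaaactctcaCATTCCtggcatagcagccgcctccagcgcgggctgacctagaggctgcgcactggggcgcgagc

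The core lay 103 to 98 bases before the Ccn1 start and 65 to 60 bases before the Amotl2 start. For the other 3 genes the 30 bases around the core are given, at chr9:8004720-8004749 for Yap1, chr3:57576029-57576058 for Wwtr1, and chr17:28350970-28350999 and chr17:28350706-28350735 for a pair of Tead3 promoters (all minus strand).
Yap1: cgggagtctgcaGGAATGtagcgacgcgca
Wwtr1: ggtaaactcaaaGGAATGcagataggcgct
Tead3, first promoter: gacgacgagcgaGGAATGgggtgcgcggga
Tead3, second promoter: tccggccgggctCATTCCgtaCATTCCggc

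The second Tead3 promoter held the core at 2 places. In all, 7 of the 8 promoters of these 5 genes held it on either strand (the pair of Wwtr1 promoters overlap and share 1 site), against 12.6% of 32851 mouse promoters of the same length. The AP-1 letters TGANTCA were in 6.75% of all promoters and the estrogen response element letters GGTCANNNTGACC in 0.0639%, searched on both strands, and 0 of the 8 promoters held either. The sets can share letters at their ends, as with the TG that closes the core and opens the AP-1 letters, but with neither of the others present no matches overlapped in the 8 promoters. A match is a stretch of letters and was not tested as a binding site, and these windows cover none of the distal regions.

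In these cells the 10 genes were expressed over a wide range. Per kb of exon, the mean level over 12 samples was 3851 normalized counts for Ccn1 (range 2703 to 5191), 2494 for Ccn3 (795 to 8996) and 2480 for Amotl2 (2057 to 2774), each above the level of at least 96.9% of genes with a length. Wwtr1 followed at 1284 per kb (1225 to 1336). Ccn2 (782, range 324 to 1577), Yap1 (767, 712 to 854), Tead1 (757, 627 to 930) and Ccn4 (612, 524 to 896) formed a middle group. Tead3 at 204 per kb (181 to 254) and Ccn5 at 152 per kb (98.0 to 266) were lowest, near the middle of all genes. The ranges of neighbours in this order overlapped except between Amotl2 and Wwtr1 and between Ccn4 and Tead3.

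Each gene's log2 values over the 12 samples were split into a part between replicate numbers, a part between treatments and a remainder. Over all genes the median part was 57.7% for replicate number and 17.9% for treatment. Ccn1 was the reverse, with 0.857% for replicate number and 90.7% for treatment. Ccn3 had 37.9% and 52.3%. Ccn2 (78.5%), Yap1 (84.0%) and Wwtr1 (74.6%) were mostly split by replicate number. Ccn2 was 2.78-fold and Ccn3 2.74-fold higher in replicate 1 than in replicates 2 and 3 on average, and 10.3% of all genes differed over 2-fold in either direction.

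**Figure D1:**
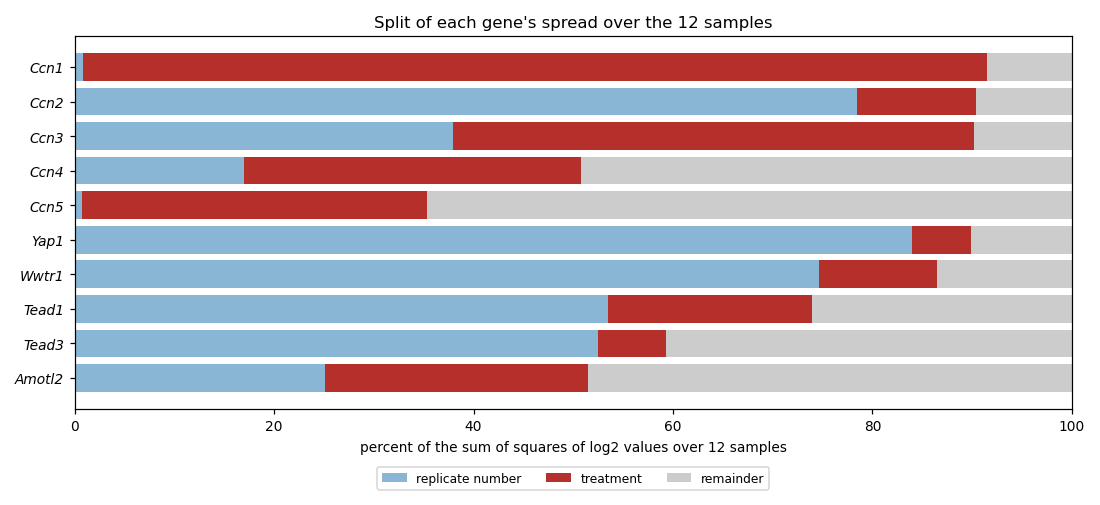
Stacked bars give, for each of the 10 genes, the percent of the sum of squares of log2 normalized counts over 12 samples that lay between replicate numbers (blue), between the 4 treatments (red) and in the remainder (grey). Ccn1 is almost all treatment (90.7%), and Yap1 (84.0%), Ccn2 (78.5%) and Wwtr1 (74.6%) are mostly replicate number.

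Because of this split, treatments were compared with limma on log2(normalized count + 1) with replicate number as a block, fitted on all 12 samples and all 13233 genes. Calls needed both an adjusted p (Benjamini-Hochberg over all genes) under 0.05 and a change over 1.2-fold. E2 against E2 plus fulvestrant and fulvestrant against vehicle share no sample, whereas the other comparisons share a group with one of these.

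Ccn1 and Ccn3 were the 2 of the 10 genes called with fulvestrant, in opposite directions. Ccn1 was 1.65-fold higher and Ccn3 3.08-fold lower with E2 plus fulvestrant than with E2, and with fulvestrant alone against vehicle the folds were 1.63 higher and 3.02 lower. For E2 against E2 plus fulvestrant 9.6% of all genes were called (4.62% higher, 4.97% lower), and for fulvestrant against vehicle 12.5% (6.76% higher, 5.69% lower), so 2 of 10 is not far from the background. With E2 against vehicle 0 of the 10 genes were called, against 0.0756% of all genes (10 genes; 1340 had an unadjusted p under 0.05).

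Ccn1 (ENSMUSG00000028195) encodes the integrin ligand CYR61 and is induced by growth factors. It lies on chromosome 3 from 145646976 to 145649981 (GRCm38, minus strand). In replicates 1, 2 and 3 it was at 6817, 5717 and 5470 normalized counts with vehicle and at 6353, 5516 and 5458 with E2. With E2 plus fulvestrant it was at 10006, 9240 and 9351, and with fulvestrant alone at 8434, 10463 and 10481. All 6 samples with fulvestrant were above all 6 without, a separation seen in either direction for 4.3% of genes. The log2 change was -0.73 for E2 against E2 plus fulvestrant (SE 0.10, 95% interval -0.95 to -0.50, limma adjusted p 0.00138) and 0.71 for fulvestrant against vehicle (SE 0.10, 0.48 to 0.93, adjusted p 0.00135). It was 0.67 for E2 plus fulvestrant against vehicle (adjusted p 0.00168), where 12.7% of genes were called. E2 against vehicle gave -0.05 (95% interval -0.28 to 0.18, adjusted p 0.885) and the vehicle and E2 groups overlapped.

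Within replicate numbers, Ccn1 was higher with fulvestrant in 6 of 6 pairs, by 0.31 to 0.94 on the log2 scale. The smallest difference was in replicate 1 without E2 (0.31), where replicates 2 and 3 gave 0.87 and 0.94. Without replicate 1 the log2 changes were -0.76 and 0.90 for E2 against E2 plus fulvestrant and for fulvestrant against vehicle. The second call was lost without replicate 2 (0.62, adjusted p 0.0556) or replicate 3 (0.59, adjusted p 0.0683).

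Ccn3 (ENSMUSG00000037362) encodes NOV, a CCN protein with a regulatory role in proliferation and matrix production, on chromosome 15 from 54745702 to 54754039 (plus strand). It is on a list that the study selected from these samples, so its direction here is not independent evidence. In replicates 1, 2 and 3 it was at 25809, 4883 and 4654 normalized counts with vehicle and at 21381, 5762 and 5787 with E2. With E2 plus fulvestrant it was at 4212, 2334 and 2491, and with fulvestrant alone at 3803, 2282 and 2460. The 6 samples without fulvestrant were all above the 6 with it, and in each group replicate 1 was the highest. The ratio of its highest to its lowest sample was 11.3, the widest of the 10 genes.

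The log2 change of Ccn3 was 1.62 for E2 against E2 plus fulvestrant (SE 0.30, 95% interval 0.95 to 2.29, limma adjusted p 0.00652) and -1.59 for fulvestrant against vehicle (SE 0.30, -2.26 to -0.93, adjusted p 0.00579). For E2 plus fulvestrant against vehicle it fell by 1.53 (adjusted p 0.00668), and E2 against vehicle gave 0.09 (-0.57 to 0.76, adjusted p 0.933). By pair, Ccn3 was lower with fulvestrant in 6 of 6, and the log2 differences without E2 were -2.76 in replicate 1 and -1.10 and -0.92 in replicates 2 and 3. The same sign in 6 of 6 pairs was seen in 27.2% of all genes. Without replicate 1, the changes were 1.26 and -1.01, both still called on the closely alike replicates 2 and 3. Without the replicate block the adjusted p was 0.637 and 0.622, so the call rests on comparing samples of the same replicate number. The E2 against E2 plus fulvestrant call was also lost without replicate 2 (1.78, adjusted p 0.0762) or replicate 3 (1.82, adjusted p 0.0573), and without replicate 2 so were the calls for fulvestrant against vehicle (-1.84, adjusted p 0.0543) and E2 plus fulvestrant against vehicle (-1.76, adjusted p 0.0544).

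Fibroblast markers moved with the same contrasts: against E2 plus fulvestrant, 6 of 10 were called higher with E2 (4.62% of all genes), and 4 of 10 were lower with fulvestrant than with vehicle (5.69% of all genes). The 10 include Esr1, whose product is the target of fulvestrant. Without the replicate block 0 of them were called in either comparison. Their summed level was 529810 to 589122 with E2, 460449 to 495114 with vehicle, 377302 to 390324 with E2 plus fulvestrant and 347195 to 395513 with fulvestrant. This sum is weighted to the most abundant genes: Col1a2 was at 92403 to 266337 and Esr1 at 76.2 to 646. It also hides opposite replicate differences. With vehicle, replicates 1, 2 and 3 were at 243523, 118816 and 118385 for Col1a2 and at 32211, 107287 and 102207 for Dcn. Of the few genes measured from the other marker lists, the glial gene S100b was called higher for E2 against E2 plus fulvestrant (0.91), the pericyte gene Notch3 lower for fulvestrant against vehicle (-0.85) and the immune gene Lyz2 lower for E2 plus fulvestrant against vehicle (-0.96). The other 2 measured genes of the pericyte list and of the immune list were above 0 in those respective comparisons (list medians 0.02 and 0.20). The part of these markers in the Ccn3 and Ccn1 results was not tested. In bulk RNA, fewer cells of a type and less RNA per cell cannot be told apart. Esr1, the receptor gene itself, had a log2 change of 2.26 for E2 against E2 plus fulvestrant and of -1.46 for fulvestrant against vehicle.

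**Figure D2:**
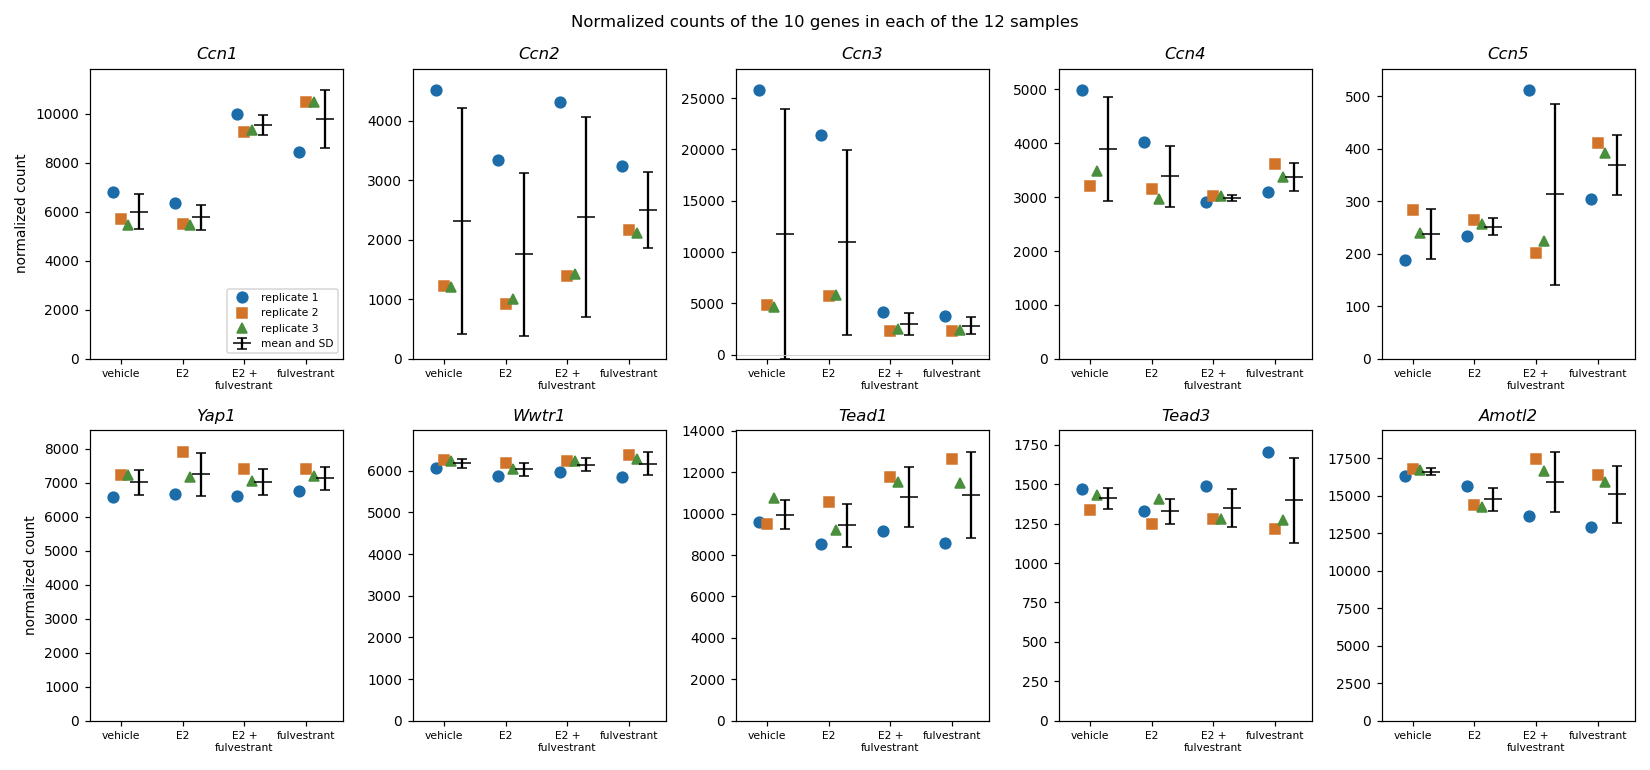
Normalized counts (y axis, from 0 or just below it) of the 10 genes by group, with 1 point per sample, shaped and coloured by replicate number, and the mean and SD of 3 samples in black. The 6 fulvestrant samples of Ccn1 sit at 8434 to 10481, above the other 6 (5458 to 6817), and for Ccn3 they sit at 2282 to 4212, below the other 6 (4654 to 25809).

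Ccn2 (ENSMUSG00000019997, chromosome 10, 24595442 to 24598683, plus strand), which encodes connective tissue growth factor, was not called. It was at 4513, 1230 and 1213 normalized counts with vehicle, 3333, 926 and 998 with E2, 4314, 1383 and 1428 with E2 plus fulvestrant, and 3241, 2167 and 2105 with fulvestrant. Replicate 1 was highest in every group and all groups overlapped. The log2 change was -0.49 for E2 against E2 plus fulvestrant (SE 0.21, limma adjusted p 0.166) and 0.38 for fulvestrant against vehicle (95% interval -0.09 to 0.85, adjusted p 0.264). E2 was below vehicle in 3 of 3 pairs, by 0.28 to 0.44 on the log2 scale, at an adjusted p of 0.559 (39% of genes had 1 sign in 3 of 3 pairs).

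For Ccn2, replicates agreed on the sign for E2 against E2 plus fulvestrant (-0.37, -0.58 and -0.52), as for 50% of all genes. They disagreed for either fulvestrant group against vehicle. Fulvestrant alone against vehicle gave -0.48 in replicate 1 and 0.82 and 0.79 in replicates 2 and 3. Without replicate 1 the change was 0.81 (limma adjusted p 2.6e-05), and that for E2 against E2 plus fulvestrant was -0.55 (adjusted p 0.000371). Both p-values rest on replicates 2 and 3 only, which were closely alike in every group, so they measure the spread between close libraries. Leaving out the single replicate 1 library of the fulvestrant group had the same effect on the call (0.77, adjusted p 0.00011). Exons of the antisense gene Gm15270 cover 23.2% of the Ccn2 exon sequence on the other strand, and the study's counting used the strand.

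Ccn4 (ENSMUSG00000005124, chromosome 15, 66891320 to 66923201, plus strand), which encodes the WNT-inducible protein WISP1, was at 4987, 3198 and 3479 normalized counts with vehicle and at 4024, 3157 and 2974 with E2. It was at 2918, 3021 and 3025 with E2 plus fulvestrant and at 3101, 3622 and 3380 with fulvestrant. Replicate 1 was highest without fulvestrant and lowest with it. The log2 change was 0.17 for E2 against E2 plus fulvestrant (SE 0.14, limma adjusted p 0.461) and -0.18 for fulvestrant against vehicle (SE 0.14, adjusted p 0.404). It was -0.35 for E2 plus fulvestrant against vehicle (95% interval -0.65 to -0.05), which did not pass (limma p 0.0249, adjusted p 0.102). All 3 pairs were lower there and the groups did not overlap, as for 3 of the 10 genes (Ccn1, Ccn3 and Ccn4) and 13.9% of all genes. Without replicate 1 this change was -0.14, and without the replicate 1 library with fulvestrant alone it was -0.35 with an adjusted p of 0.0434.

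Ccn5 (ENSMUSG00000027656, chromosome 2, 163820861 to 163833146, plus strand) encodes WISP2, which lacks the C-terminal domain of the other CCN proteins. It was the lowest of the family, at 189, 284 and 239 normalized counts with vehicle, 234, 265 and 256 with E2, 512, 203 and 225 with E2 plus fulvestrant, and 304, 411 and 392 with fulvestrant. All 3 fulvestrant samples were above all 3 vehicle samples. Groups were without overlap in this comparison for 3 of the 10 genes (Ccn1, Ccn3 and Ccn5) and for 11.1% of all genes. The log2 change of 0.64 did not pass (95% interval -0.02 to 1.30, limma adjusted p 0.175). The replicate 1 library with E2 plus fulvestrant stood apart at 512. Without that library the same change of 0.64 had an adjusted p of 0.0046, and without replicate 1 in any group it was 0.62 (adjusted p 0.00693). The latter p-value rests on replicates 2 and 3 only, which were closely alike.

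The balance of the family shifted with fulvestrant. Per kb of exon, Ccn1 made up 40.5% ± 15.5 (SD, n = 3) of the summed Ccn1 to Ccn5 level with vehicle and 64.5% ± 6.61 with fulvestrant, and Ccn3 made up 39.9% ± 17.6 and 13.3% ± 4.15. With E2 the Ccn3 share was 43.0% ± 13.9, and with E2 plus fulvestrant 14.1% ± 2.37. The Ccn2 share was 8.61% with vehicle and 11.7% with fulvestrant, and Ccn5 held 0.656% to 3.05% in all samples.

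The ratio of Ccn3 to Ccn1 per kb was above 1 in 2 of the 12 samples. In replicate 1 it was 2.66 with vehicle, 2.37 with E2, 0.296 with E2 plus fulvestrant and 0.317 with fulvestrant. In replicates 2 and 3 it was 0.601 and 0.599 with vehicle, 0.735 and 0.746 with E2, 0.178 and 0.187 with E2 plus fulvestrant, and 0.153 and 0.165 with fulvestrant. The ratio was lower with fulvestrant in each replicate number, and the step was larger in replicate 1.

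**Figure D3:**
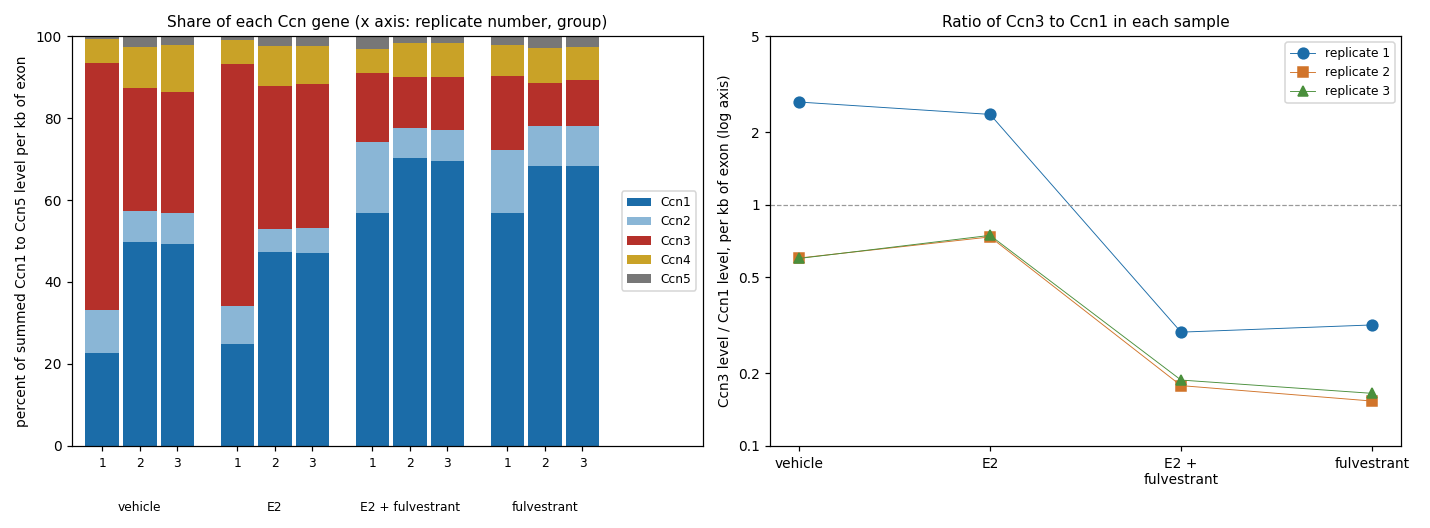
Left, stacked bars give the percent of the summed Ccn1 to Ccn5 level per kb of exon held by each gene in each of the 12 samples; right, the ratio of Ccn3 to Ccn1 per kb on a log axis, with 1 line per replicate number. The ratio is 0.599 to 2.66 without fulvestrant and 0.153 to 0.317 with it.

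None of the coactivators and their DNA-binding partners among the 10 genes was called between groups. Yap1 (ENSMUSG00000053110, chromosome 9, 7931999 to 8004596, minus strand) was at 6593, 7214 and 7212 normalized counts with vehicle, 6665, 7903 and 7156 with E2, 6616, 7397 and 7056 with E2 plus fulvestrant, and 6761, 7411 and 7207 with fulvestrant. Replicate 1 was lowest in each group, and all groups overlapped. Its log2 change was 0.04 for E2 against E2 plus fulvestrant (95% interval -0.06 to 0.14, limma adjusted p 0.598) and 0.02 for fulvestrant against vehicle (-0.08 to 0.13, adjusted p 0.760).

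Wwtr1 (ENSMUSG00000027803, chromosome 3, 57455649 to 57575910, minus strand) was the steadiest of the 10, from 5856 to 6387 in all 12 samples, a ratio of highest to lowest of 1.09. It was at 6058, 6250 and 6222 with vehicle, 5882, 6195 and 6042 with E2, 5977, 6231 and 6240 with E2 plus fulvestrant, and 5856, 6387 and 6271 with fulvestrant. The groups overlapped, with log2 changes of -0.03 for E2 against E2 plus fulvestrant (95% interval -0.12 to 0.07) and -0.0021 for fulvestrant against vehicle (-0.09 to 0.09; limma adjusted p 0.737 and 0.980). For both coactivators these intervals lay inside the fold threshold of 1.2, so a change of RNA past that threshold was outside the intervals.

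Tead1 (ENSMUSG00000055320, chromosome 7, 112679318 to 112906807, plus strand) encodes a DNA-binding partner of YAP and TAZ. It was at 9606, 9494 and 10751 normalized counts with vehicle, 8513, 10550 and 9221 with E2, 9150, 11775 and 11537 with E2 plus fulvestrant, and 8582, 12627 and 11472 with fulvestrant. Replicate 1 was lowest in 3 of the 4 groups. The log2 change was -0.20 for E2 against E2 plus fulvestrant, with 3 of 3 pairs lower (SE 0.09, limma adjusted p 0.196; 50% of genes had 1 sign in 3 of 3 pairs), and 0.11 for fulvestrant against vehicle, with 1 pair lower and 2 higher (SE 0.09, adjusted p 0.442).

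Tead3 (ENSMUSG00000002249, chromosome 17, 28331671 to 28350817, minus strand) was at 1468, 1338 and 1429 with vehicle, 1327, 1248 and 1407 with E2, 1487, 1278 and 1276 with E2 plus fulvestrant, and 1704, 1213 and 1273 with fulvestrant. The groups overlapped and the log2 changes were -0.02 and -0.03 (limma adjusted p 0.908 and 0.847) for E2 against E2 plus fulvestrant and fulvestrant against vehicle.

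Amotl2 (ENSMUSG00000032531, chromosome 9, 102716672 to 102733418, plus strand), a scaffold that binds YAP and is itself a YAP target, was not called. It was at 16321, 16789 and 16720 normalized counts with vehicle, 15665, 14352 and 14259 with E2, 13657, 17446 and 16651 with E2 plus fulvestrant, and 12935, 16407 and 15930 with fulvestrant. The E2 samples were all below the vehicle samples, which was so in either direction for 5.19% of genes, with a log2 change of -0.17 (95% interval -0.38 to 0.03, limma adjusted p 0.542). E2 against E2 plus fulvestrant gave -0.10 (adjusted p 0.513) and fulvestrant against vehicle -0.15 (adjusted p 0.321).

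**Figure D4:**
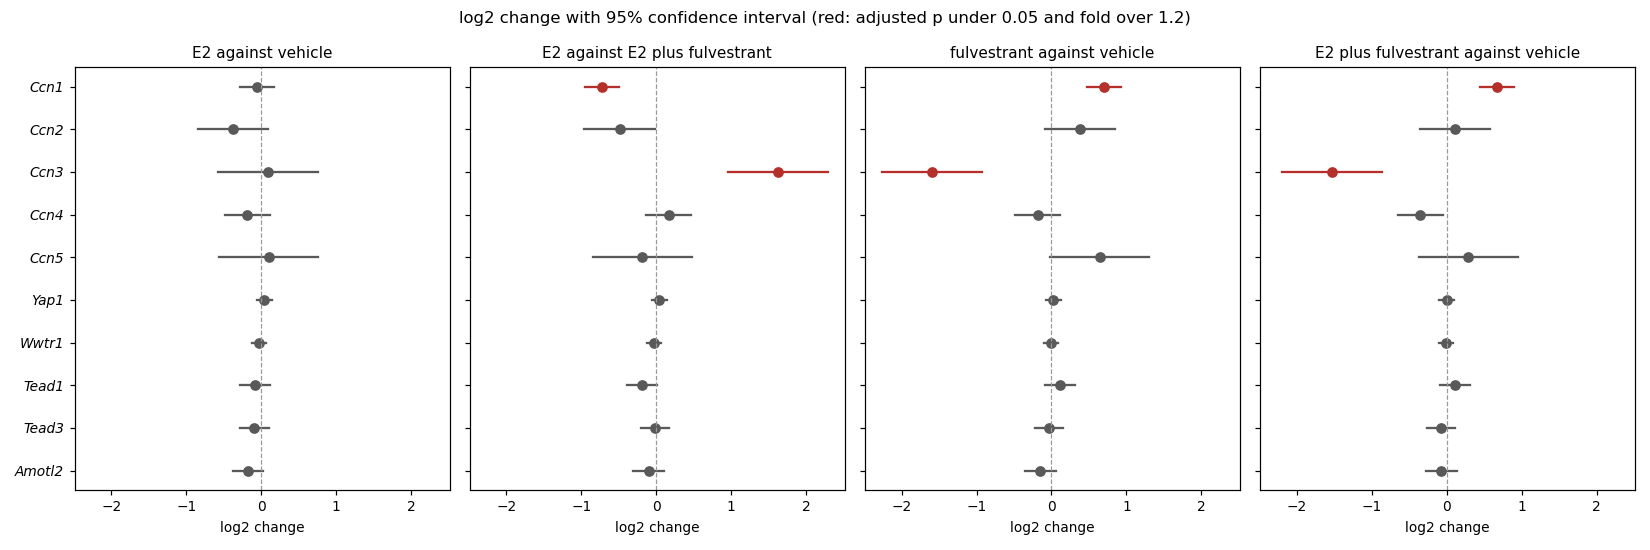
Points give the log2 change of each of the 10 genes and bars its 95% confidence interval in 4 comparisons from the 12-sample limma fit with replicate number as a block. Red marks genes called, which are Ccn1 (-0.73, 0.71 and 0.67) and Ccn3 (1.62, -1.59 and -1.53) in the 3 comparisons with fulvestrant.

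The interaction of E2 and fulvestrant, which asks whether the E2 change differed with and without fulvestrant, called 0 of the 10 genes and 0% of all genes (501 genes had an unadjusted p under 0.05). It was 0.02 for Ccn1 (95% interval -0.30 to 0.34) and -0.03 for Ccn3 (-0.97 to 0.92). E2 plus fulvestrant against fulvestrant alone likewise called 0 of the 10 and 0% of all genes (255 with an unadjusted p under 0.05).

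Other genes of the pathway were counted from lists of known members. Among 28 Hippo kinases and upstream regulators, 2 were called lower with E2 against E2 plus fulvestrant, 2 higher and 2 lower with fulvestrant than with vehicle, and the medians of -0.03 and -0.01 were close to those of all genes (-0.01 and 0.01). The counts were also near the background, since 9.6% of all genes were called in the first comparison and 12.5% in the second. Under quantile normalization the first median was 0.01, on the other side of 0. Frmd6, an upstream activator of the pathway, was called in both, at 5481 to 8047 normalized counts without fulvestrant and at 10334 to 14202 with it (log2 change -0.77 and 0.80). Map4k4, a kinase that acts on LATS, was called in both as well (-0.49 and 0.48). The protocadherin gene Dchs1 (-0.67) and the kinase gene Tnik (-0.59) were lower with fulvestrant than with vehicle. Tnik, like Ccn3, is on the list selected from these samples. Without the replicate block 0 of the 28 were called in either comparison.

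Among the other TEAD and VGLL genes, 4 of 6 were measured and 1 was called in each comparison, where 9.6% and 12.5% of all genes were. Tead4 was at 300, 151 and 137 normalized counts with vehicle, 244, 105 and 108 with E2, 270, 238 and 295 with E2 plus fulvestrant, and 255, 274 and 274 with fulvestrant. It was called for E2 against E2 plus fulvestrant (log2 change -0.92, SE 0.26, limma adjusted p 0.0430), where all 3 pairs were lower, and not for fulvestrant against vehicle (0.54, adjusted p 0.185), where replicate 1 was lower with fulvestrant and replicates 2 and 3 higher. Vgll4, which encodes a competitor of YAP for TEAD, was called lower with fulvestrant than with vehicle (-0.28, adjusted p 0.00884). Both calls were lost without the replicate block.

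Of 22 known YAP/TAZ target genes 21 were measured (Lats2 and Ptpn14 are also on the Hippo list), 3 of them (Ccn1, Ccn2 and Amotl2) also among the 10 described here. With E2 against E2 plus fulvestrant 2 were called higher and 4 lower (median -0.10), and with fulvestrant against vehicle 6 were higher and 3 lower (median 0.12). The shares over all genes were 4.62% higher and 4.97% lower (median -0.01) in the first and 6.76% higher and 5.69% lower (median 0.01) in the second. The called target genes split by direction. Nuak2, a kinase gene (-0.99 and 0.94), Ccn1, the membrane repair gene Myof (-0.62 and 0.78) and the receptor gene Axl (-0.34 and 0.49) were higher with fulvestrant in both comparisons. Igfbp3, which encodes a binding protein for insulin-like growth factors (1.25 and -1.08), and the growth factor gene Tgfb2 (0.61 and -0.83) were lower in both. Fjx1 (0.85) was called higher and Ccdc80 (-0.44) lower in fulvestrant against vehicle. Ankrd1, another widely used target, had changes of -0.76 and 0.76 that did not pass (SE 0.29; limma adjusted p 0.118 for the first). For the second, replicates disagreed on the sign. Replicate 1 was at 141 normalized counts with vehicle and 101 with fulvestrant, whereas replicates 2 and 3 were at 425 and 446 with vehicle and at 1103 and 1179 with fulvestrant. For the first, E2 was lower in each replicate number.

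Fewer of these calls were made without the replicate block: 0 higher and 1 lower, and 1 higher and 1 lower, of the 21 target genes.

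The SRF/MRTF genes, a second mechanically sensitive program that shares targets with YAP, had 15 of 16 members measured. Of these 2 were called higher and 2 lower for E2 against E2 plus fulvestrant (median -0.01; 0.01 with CPM), and 3 higher and 1 lower with fulvestrant than with vehicle (median 0.15). For all genes the shares called were 9.6% and 12.5%, with medians of -0.01 and 0.01. Srf (-0.33 and 0.32) and Fhl2 (-0.48 and 0.39) were higher with fulvestrant in both, and the tropomyosin gene Tpm1 (0.43 and -0.41) was lower in both. Without the replicate block 0 SRF/MRTF genes were called in either comparison.

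Among 15 CCN receptors and partners, 1 was called higher and 2 lower for E2 against E2 plus fulvestrant (median -0.10), and 4 higher and 1 lower with fulvestrant than with vehicle (median 0.19). The same comparisons called 9.6% and 12.5% of all genes, whose medians were -0.01 and 0.01. The integrin genes Itga5 (-0.47 and 0.64) and Itga6 (-0.59 and 0.74) were higher with fulvestrant in both. Itgb1 (0.27), an integrin beta subunit gene, and Gja1 (0.34), a gap junction gene, were called higher in fulvestrant against vehicle. The WNT coreceptor gene Lrp6 was lower in both (0.46 and -0.45). None of these receptor and partner calls held without the replicate block.

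Ccn1 is also an immediate early gene, and 20 others of that class were all measured. With E2 against E2 plus fulvestrant 0 were called higher and 13 lower (median -0.52), and with fulvestrant against vehicle 14 were higher and 0 lower (median 0.60), against medians of -0.01 and 0.01 over all genes. Those called were 4.97% of all genes for lower in the first and 6.76% for higher in the second. Fosl1 (-1.43 and 1.21), Dusp1 (-1.34 and 1.38) and Atf3 (-1.06 and 1.03) were among the largest changes in both. Without the replicate block 0 were called in either comparison. Atf3 was at 13.2 to 57.1 in replicate 1 and at 2418 to 4716 in replicates 2 and 3.

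**Figure D5:**
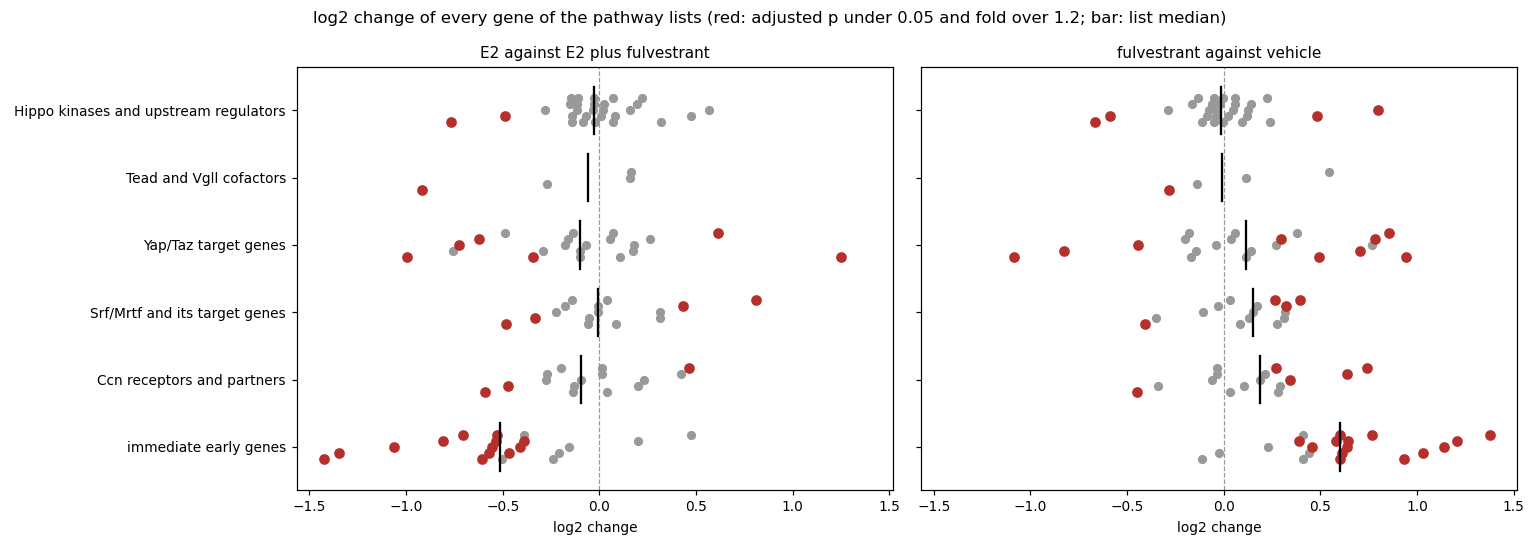
Each point is 1 gene of 6 pathway lists, placed by its log2 change in E2 against E2 plus fulvestrant (left) and in fulvestrant against vehicle (right); red points were called and black bars are list medians. Immediate early genes lie mostly below 0 on the left (median -0.52) and above 0 on the right (median 0.60), while the other lists have points on both sides.

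The genes whose values most closely followed each CCN gene were sought over 12 samples among 11273 genes with a mean of at least 100, after the mean of each replicate number was subtracted, so the points share libraries and treatments. For Ccn1 they were Plk3 (Pearson r 0.995), Exoc5 (0.990), Cd44 (0.990), Mapk6 (0.989) and Lrrfip1 (0.989). For Ccn3 they were Epha7 (0.992), Ism1 (0.992), Srpx2 (0.991), Lhfpl2 (0.989) and Pdgfd (0.987), with log2 changes for E2 against E2 plus fulvestrant from 0.61 to 1.59. For Ccn2 they were Ndufaf4 (0.952), Thap1 (0.947), Rbm28 (0.941), Fam107b (0.936) and Gsto1 (0.912). For Ccn4 they were Met (0.962), Cdh3 (0.960), Itga1 (0.949), Mthfd2l (0.943) and Adgrg6 (0.942). For Ccn5 they were Rbm41 (0.947), Tmem68 (0.904), ENSMUSG00000029142 (0.896), Akap10 (0.890) and Ggta1 (0.881), and for Amotl2 they were Mmp28 (0.963), Maz (0.933), Txlna (0.925), Gm10443 (0.924) and Rab32 (0.922). On the same measure, r between Ccn1 and Ccn2 was 0.79 and between Ccn1 and Ccn3 -0.78. With Yap1, r was -0.23 for Ccn1 and -0.40 for Ccn2. It was 0.52 and 0.85 with Wwtr1, and 0.75 and 0.78 with Tead1.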

How the data were processed

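RNA was measured by RNA-Seq in 12 samples of HAFs, 4 groups of 3, grouped by the submitters' labels. Deposited was a normalized count, a signal for each gene in each sample: per the study's methods the authors trimmed reads (Trimmomatic 0.39 per the submitters' processing notes), aligned to mm10 (STAR 2.5.2), counted by strand (HTSeq 0.13.5), removed low counts and normalized by median of ratios (DESeq2 1.37). All values became whole reads after rescaling (tolerance 0.0001), with at least 10 reads. Of 13233 identifiers, 13149 had a symbol in GENCODE M21 (GRCm38). Exon length was the union of exons. Replicate numbers still separated the values, so any batch adjustment by the authors does not show in them.

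Log2(value + 1) was fitted with limma 3.58.1 (eBayes with trend) in R 4.3.3, all 12 samples, replicate number as a block. A gene was called at Benjamini-Hochberg adjusted p under 0.05 over all genes and fold over 1.2. The replicate number in the labels gave the block. For 18 pairs of samples with the same number in different groups, the correlation of deviations from group means was 0.63 to 0.92 (mean 0.76). Since replicate 1 stood apart in every group, such values can follow from that alone. They do not show that replicates 2 and 3 were matched across groups. With 3 samples against 3 an exact permutation test cannot go below 0.1, so none was used. On simulated data for E2 against vehicle (13233 genes, 200 changed), 85% of genes changed 1.5-fold and 100% of those changed 2-fold were called, 2.63% of calls fell on unchanged genes, and a simulation with no change gave 0 calls. The simulation gave all genes the same dispersion and the same change in each replicate number. In the data the SE was 0.21 for Ccn2, 0.30 for Ccn3 and 0.30 for Ccn5, against a median of 0.09 over all genes. The shares called were therefore not shown to hold for these genes. Alternatives were the block, 2 groups only, a pseudocount of 10, a mean of at least 100, no variance trend, CPM, quantile normalization and leaving out libraries.

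Genes named were the 10 listed members and Pgr, up to 4 called genes of each list in each direction by size of change, and the 5 genes closest to each CCN gene and Amotl2; Ankrd1, Esr1 and the markers Pdgfra, Col1a1, Dpt, Tek, Cd14, Cd68, Lyz2, Myh11 and Cspg4 were named after values were seen. The members and lists were chosen with earlier results of these data known. Python 3.11.15, pandas 2.3.3, numpy 2.4.6 and matplotlib 3.10.9 were used.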

Additional observations from a re-analysis of the deposited data

How the results depend on the processing

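The main limit is the replicate block. Without it, the numbers of the 10 genes called were 1 for each of the 3 comparisons between groups with and without fulvestrant (E2 against E2 plus fulvestrant first, then either fulvestrant group against vehicle; Ccn1 in each, with Ccn3 lost), and all genes called were 69 (E2 against E2 plus fulvestrant), 72 (fulvestrant alone) and 60 (E2 plus fulvestrant), and 1 for E2 against vehicle. In fits of 2 groups only with the replicate block, Ccn2 was added for E2 against vehicle (1 called, 57 of all genes) and for E2 against E2 plus fulvestrant, Ccn5 for fulvestrant against vehicle (692 of all genes called). In fits of 2 groups only with no replicate block, 0 of the 10 were called and, of all genes, 0 for E2 against vehicle, 8 for E2 against E2 plus fulvestrant, 0 for fulvestrant against vehicle, then 3 for E2 plus fulvestrant against vehicle. With no variance trend 3 genes were called for E2 against vehicle. The pairing came from the labels, and the cause of these differences was not tested.

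Leaving out libraries, the 10 genes gave 1 to 3 calls for E2 against E2 plus fulvestrant, 0 to 4 for fulvestrant against vehicle, 1 to 3 for E2 plus fulvestrant against vehicle, and 0 to 1 for E2 plus fulvestrant against fulvestrant. Over all genes the ranges were 316 to 1611, 399 to 2312, 541 to 1916 and 0 to 4, with 0 to 59 for E2 against vehicle and 0 to 11 for the interaction. The 4 calls came without replicate 1, which leaves the closely alike replicates 2 and 3, and the 0 without replicate 2. Ccn1 and Ccn3 kept every call when a single library was left out.

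Changes that turned sign in some of these settings were all of genes not called in the comparison concerned. For E2 against vehicle the ranges were -0.116 to 0.0424 (Ccn1), -0.16 to 0.53 (Ccn3), -0.13 to 0.28 (Ccn5) and -0.202 to 0.0112 (Tead1). For fulvestrant against vehicle they were -0.363 to 0.0690 (Ccn4), -0.0345 to 0.253 (Tead1), -0.154 to 0.0372 (Tead3) and -0.0188 to 0.0213 (Wwtr1), and Yap1 was -0.0154 with CPM and -0.0377 with quantile normalization. For E2 against E2 plus fulvestrant they were -0.52 to 0.35 (Ccn5) and -0.0989 to 0.0652 (Tead3), and for the interaction -0.15 to 0.11 (Ccn1) and -0.46 to 0.26 (Ccn3).

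With CPM, 42.3% and 41.9% of the genes called were higher for fulvestrant and for E2 plus fulvestrant against vehicle, against 54.3% and 55.4%, and for E2 against E2 plus fulvestrant the share moved from 48.2% to 54.1% (51.5% with quantile normalization). A planned count test in edgeR on reads recovered from the values was not run. Of the 10 genes, Ccn5 had the fewest reads and so the least precise counts.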
